A study of Mus musculus with 2 samples.

Results

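Genomic-class single-exon models are unspliced transcript models that the authors placed in an annotated gene, on its strand, without giving them to any of its spliced structures, and in a few cases at a locus outside annotated genes. Every model with the novelty class Genomic and 1 exon was taken from the quantification table of each library. This gave 7720 models with 28563 reads in replicate 1 and 13648 models with 61100 reads in replicate 2, together 21368 of 244752 models. They made up 7.39% and 9.73% of the models, and 3.60% and 4.74% of all reads. The data are long-read RNA sequencing of total RNA from adrenal gland of male B6CASTF1/J mice aged 25 days, the hybrid of C57BL/6 and CAST/EiJ parents. There is 1 group of 2 libraries and no treatment, so no condition was compared. The library descriptions name 1 animal for both libraries and the tissue descriptions name different ones, so any test below compares 2 pools of reads and its p-value covers the sampling of reads only. An RNA input of 1 µg is given for replicate 2 alone.

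A long read normally runs from near the start of an RNA to its poly(A) tail and shows its splice junctions. A read with no junction can come from unspliced or partly spliced precursor RNA, from a retained intron, from a last exon whose read stops short of the junction, from priming on an internal stretch of A, or from DNA. The adrenal cortex makes steroid hormones from cholesterol with a few highly expressed genes, and the medulla makes catecholamines.

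The sequences around the 3′ ends of intron models are shown because some of these ends lie beside stretches of A. Loci classed as within an intron and seen in both libraries, with 3′ ends within 50 bases, numbered 296. At Mfsd4a the replicate 1 model also covered exon bases. An annotated GENCODE M21 transcript on either strand covered the 20 bases after the end for 64 of the 296 loci. For 27 of those 64 at least 10 of the 20 bases were A. Of the 20-base windows in the longest transcript of each of 18158 genes with reads, on its own strand, 4.73% were that rich in A. The 64 are a covered minority, so nothing is read from them about intron models as a whole. Those shown are the 6 with the most reads for which a sequence can be given, written 5′ to 3′ on the strand of the model, in mm10. Capitals mark the 20 bases after the 3′ end of the replicate 2 model, and lower case the last 10 bases of the model where a transcript covered them. The first 3 are among the 8 intron loci with the most reads. The other 3 were chosen, after values were seen, as the next with sequence.
Mfsd4a, chr1:132023818-132023847, minus strand: aaaaaacaccTTTTTAAAAAAAGAAGTGAG
Gm15283, chr12:73908304-73908323, minus strand: TTTTCTTCTCGTTCTCGCCG
Rab10os, chr12:3249236-3249265, plus strand: tgcttccaccAAAACAAAAAAAGAAAACCA
Plcg1, chr2:160769947-160769976, plus strand: ccaagtagtcAAAAAAAAAAAAAAAAAAAA
Strbp, chr2:37532609-37532628, minus strand: TTGCATATTTTATATAAAGA
Gm44686, chr7:73546088-73546117, plus strand: gactaacctcAAAAAAAAAAAAAAAAAAAA

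The bases after the Plcg1 and Gm44686 ends are 20 of 20 A, those after the Rab10os end (base 3249245, where the replicate 1 model ends at 3249233) 16, those after the Mfsd4a end 10 and those after the Strbp end 8. The Gm15283 window holds 0 A, and its models, with 13 and 22 reads, end at the same base in the 2 libraries. Plcg1, which encodes a phospholipase C, had 4 reads at this locus in replicate 1 and 31 in replicate 2. The locus held 10.3% and 60.8% of the reads of the gene. The long noncoding gene Gm44686 had 7 and 10 reads at its locus, of 11 and 18 in the gene. Strbp, which encodes an RNA-binding protein, had 10 and 13 reads at its locus, 13.3% and 13.8% of the gene. Rab10os, a noncoding gene, had 11 and 23 reads there, 22.9% and 42.6%.

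Models within exons were the largest class. Of the models, 52.5% in replicate 1 and 44.5% in replicate 2 had every base in an annotated exon of their gene. The 95% Clopper-Pearson bounds of these shares were 51.4 and 53.6, and 43.7 and 45.4. Another 23.2% and 27.7% covered exon and intron, 14.8% and 19.4% lay within an intron, and 6.44% and 5.39% ran past the gene. Loci outside annotated genes took 3.04% and 3.00%. Counted by reads, introns took less: 54.4% and 56.2% of the reads were within exons and 6.36% and 7.98% within an intron. Intron models were mostly single reads (78.7% and 78.1%), against 47.9% and 41.3% of exon models.

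**Figure D1:**
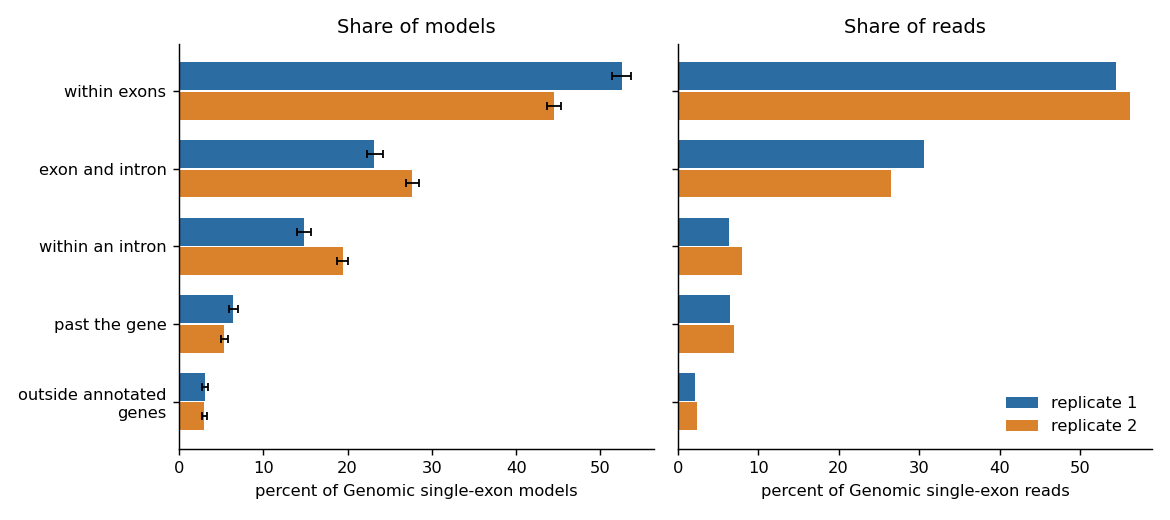
Share of Genomic single-exon models (left, percent, with 95% Clopper-Pearson intervals) and of their reads (right, percent) by place in the gene, in each library. Models within exons are the largest class in both libraries (52.5% and 44.5% of models), and the intron share is smaller by reads (6.36% and 7.98%) than by models (14.8% and 19.4%).

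The exon models lay mostly in last exons. The last exon of every annotated transcript was counted, which need not lie at the 3′ end of the gene. In replicate 1, 98.9% lay in a last exon and in replicate 2, 96.9%. Wholly inside annotated 3′ untranslated region were 78.4% and 76.1%, and 81.9% and 76.5% ended exactly at an annotated 3′ end. Their median length was 1054 bases in replicate 1 and 752.5 in replicate 2. Exon-and-intron models were longer, with medians of 2369 and 2005 bases. Of these, 39.1% and 43.9% began exactly at an annotated transcript start, and 39.4% and 22.1% ended exactly at an annotated 3′ end. A whole annotated intron lay inside 53.3% and 43.6% of them. Introns were counted as the gaps left when the exons of all annotated transcripts of the gene were merged. An intron that any annotated transcript retains was therefore not counted. In replicate 1, 558 held 1 intron, 208 held 2 and 188 held 3 or more, up to 10. In replicate 2 these numbers were 1039, 346 and 261, up to 14. Of the models that held no whole intron, 37.8% and 40.9% began at an annotated start.

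The polyadenylation signal was common upstream of annotated 3′ ends. AATAAA or ATTAAA, searched on the model's strand only (neither contains the other), was in the last 50 bases of 84.6% of the models of at least 50 bases that ended at an annotated 3′ end in replicate 1 and 79.8% in replicate 2. Incomplete splice match (ISM) single-exon models, which match part of an annotated transcript, gave 83.3% and 81.7% at such ends. Over 50-base windows tiled along the longest annotated transcript of each gene with reads, 3.65% held either motif. For models within exons that ended elsewhere, the share was 53.1% and 39.9% in the 50 bases up to the end, which reach beyond the start of shorter models.

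The share of A after the 3′ end could be read for 96.3% and 95.5% of the exon models that ended away from annotated 3′ ends. At least 10 of the next 20 bases were A for 19.6% of them in replicate 1 (95% interval 16.7 to 22.7) and 26.4% in replicate 2 (24.1 to 28.8). The share of windows in the longest transcript of each gene was the 4.73% given above. ISM single-exon models within exons that ended elsewhere gave 11.5% and 20.8%, read for 85.3% and 63.3% of them. For intron models the check was void, because sequence was held for 11.2% and 10.9% of them. The same holds for the whole class, and how many reads were primed inside a transcript was not tested.

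The 5′ ends followed another pattern. The 5′ end was exactly an annotated 3′ end of the same gene in 38.5% and 39.0% of the exon models, against 0.0588% and 0.0710% of ISM single-exon models within exons. In 1406 models with 6106 reads in replicate 1, and 2050 models with 16538 reads in replicate 2, both ends were annotated 3′ ends. In a model of 1 base these ends are the same base, and a longer model spanned the stretch between different annotated 3′ ends. Over all places, 12.6% and 12.4% of the models in genes began exactly where another model of that gene and library ended. For NIC and NNC models, the new spliced classes, this was 0.145% and 0.301%. Each model has 1 set of coordinates for all its reads, and the reads' own ends were not analysed here, so a model's length is not the length of its reads.

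Rbp4, which encodes the plasma carrier of retinol, gives the plainest case. Its model at chr19:38116629-38116630 (minus strand, in the 3′ untranslated region) is 2 bases long, between 2 annotated 3′ ends. It held 4 reads of 16 in replicate 1 and 1227 of 5301 in replicate 2, the latter 23.1% of the reads of the gene. Models of 1 to 3 bases numbered 181 with 1003 reads in replicate 1 and 456 with 4058 reads in replicate 2, and 151 and 396 of them were 1 base long. Of those in annotated genes, 73.3% and 66.7% had both ends at annotated 3′ ends, which in a model of 1 base are the same base. No ISM single-exon model was that short, and 93 and 224 antisense single-exon models were.

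Model length had a median of 1605.5 bases in replicate 1 (quartiles 626 and 2628) and 1360.5 in replicate 2 (471 and 2250). The longest was 9189 and 7188 bases. Every other single-exon class was shorter in replicate 2 as well. ISM models had medians of 1078 and 766 bases, antisense models 1851 and 1403, and intergenic models 1028 and 610. The 20-base window with the most intergenic single-exon models was 164 to 183 bases, with 13.9% and 12.5% of that class. This window held 167 and 318 members, against 84 and 205 in the 20 bases below and 83 and 152 in the 20 bases above. Of the members in the window, 70.7% and 58.8% lay within an intron, where 14.8% and 19.4% of all members lay.

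**Figure D2:**
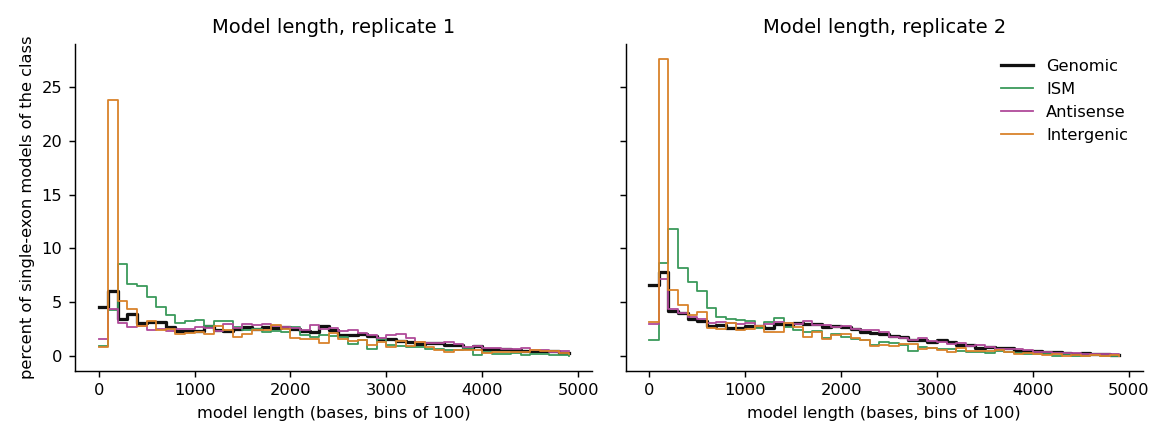
Length of single-exon models in bins of 100 bases (x axis, bases) as percent of the models of each class (y axis), for replicate 1 (left) and replicate 2 (right). The Genomic class is spread to beyond 3000 bases with medians of 1605.5 and 1360.5. The bin from 100 to 200 bases is the largest of the intergenic class (23.8% and 27.6%). It is also the largest of the Genomic class (6.08% and 7.83%).

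Models ending at annotated 3′ ends recurred most often. In annotated genes 44.3% of the models of replicate 1 and 25.1% of those of replicate 2 had a model of the same gene and strand in the other library with a 3′ end within 50 bases. These held 64.6% and 50.8% of the reads. The share was 55.3% and 40.8% for annotated 3′ ends and 31.0% and 13.8% for ends elsewhere. These 2 sets are not alike, because annotated ends are a limited set of positions that both libraries share. Of the exon models, 3323 and 4650 ended exactly at one, and 38 and 69 ended within 50 bases without matching. Whether model ends were set to annotated positions was not tested. Intron models recurred among themselves at 23.9% and 10.3%. Replicate 2 was the deeper library, with 1210671 reads in annotated genes against 752432, and 3316 of 17397 loci were seen in both.

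**Figure D3:**
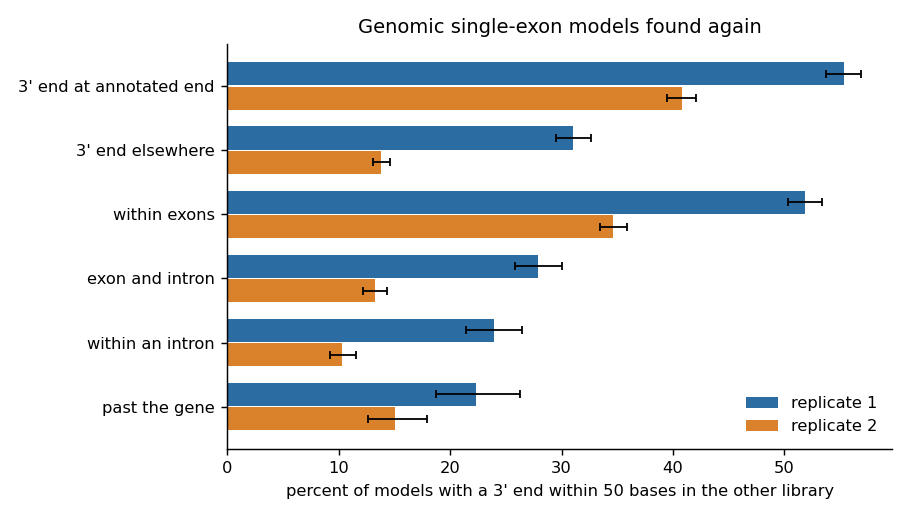
Percent of Genomic single-exon models (x axis) with a 3′ end within 50 bases of one in the other library, compared within each set named on the y axis, with 95% Clopper-Pearson intervals. Models ending at an annotated 3′ end were found again more often (55.3% and 40.8%) than those ending elsewhere (31.0% and 13.8%).

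Genomic single-exon models took 3.72% of the reads in annotated genes in replicate 1 (95% interval 3.67 to 3.76) and 4.93% in replicate 2 (4.89 to 4.97), a mean of 4.32% ± 0.858 (SD, n = 2). The share was 1.33 times as high in replicate 2, with log10 p = -358 by a two-sided Fisher's exact test on reads. With each of 5749 genes weighted equally the means were 3.83% and 6.17%. Tissue markers moved with the libraries. The 5 skeletal muscle markers summed to 2265 and 0.826 CPM (reads scaled to the gene reads of the library), with 4 of the 5 at 0 in replicate 2, and the 6 liver markers to 5.32 and 43821 CPM, with 4 of the 6 at 0 in replicate 1. The 5 adrenal cortex markers were present in both, at 60880 and 24697 CPM. Fewer cells of a type and less RNA per cell cannot be told apart in such tissue RNA, and the part of these tissues in the shares was not tested. The library difference was 1.74 percentage points without the genes over 10-fold different in level, and 1.21 with them. Members were found in 6154 and 8929 genes, of which 4560 were shared (74.1% of the first set and 51.1% of the second).

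The share differed with gene structure and type. Genes annotated with a single exon are not compared: an unspliced read there matches the known transcript, and they had 0 members. Protein-coding genes with several exons were grouped by the longest last exon of any annotated transcript, which need not lie at the 3′ end of the gene. The share was higher the longer this exon, from 0.983% and 1.71% below 500 bases to 9.19% and 11.8% at 4000 bases or more. Long noncoding genes had 30.2% and 25.1% of their reads in the class, protein-coding genes 3.57% and 4.76%, and pseudogenes 0.941% and 1.68%. Without the 10 noncoding genes with the most such reads it was 25.4% and 22.3%. These are shares of summed reads: the 29 noncoding genes that reached 20 reads in both libraries had medians of 0.990% and 2.00%, against 0.291% and 1.89% for protein-coding genes. In noncoding genes 40.1% and 44.7% of the models lay within an intron, against 12.7% and 17.4% in protein-coding genes. These are descriptions of 2 libraries, and the gene sets also differ in read depth.

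**Figure D4:**
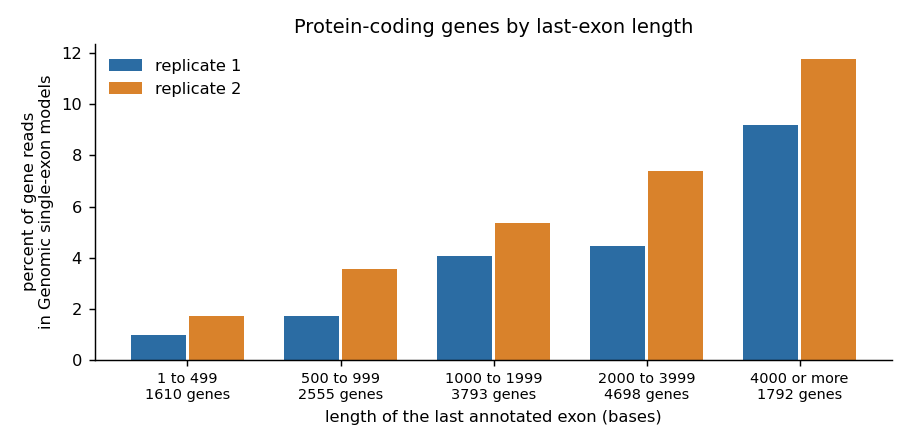
Percent of gene reads in Genomic single-exon models (y axis) for protein-coding genes with several exons, in each library. Genes are grouped by the longest last exon of any annotated transcript (x axis, bases, with the number of genes). The share is higher at each step, from 0.983% and 1.71% to 9.19% and 11.8%.

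Cyp11a1 had the most reads in the class in both libraries, followed by Kcnk3 with 429 in replicate 1 and, closely, by Apoe with 3411 in replicate 2. Cyp11a1 (ENSMUSG00000032323.13, chr9:58006411-58027023, plus strand) encodes the enzyme that starts steroid synthesis by cleaving the side chain of cholesterol. It had 3726 such reads of 14903 in replicate 1, or 25.0%, and 3581 of 10879 in replicate 2, or 32.9%. It alone held 13.3% and 6.0% of all Genomic single-exon reads in genes. In replicate 1, 3724 of its reads lay in 1 model, chr9:58022971-58027023, and in replicate 2, 3562 lay in chr9:58023022-58027023. Both end at the annotated 3′ end and hold 3 whole introns, 600 coding bases and 174 bases of 3′ untranslated region. The intervals of the shares did not overlap (adjusted p = 7.82e-41, Fisher's exact test with Benjamini-Hochberg adjustment over 5749 genes).

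Other steroid and lipid genes had different kinds of model. Star, which encodes the protein that carries cholesterol into mitochondria, had 200 of 6524 reads in replicate 1, or 3.07%. In replicate 2 it had 623 of 5082, or 12.3% (Fisher's exact test, adjusted p = 3.60e-79). With ISM single-exon reads counted as well Star was not called, as given below. In replicate 1 its leading model was chr8:25813413-25815299 with 175 reads, inside the 3′ untranslated region. In replicate 2 it was chr8:25812619-25814975 with 574 reads, reaching back into an intron, and another with 29 reads began at the same base 25814975. Both libraries also had a Star model over 5 whole introns, with 24 and 18 reads, ending at base 25812423.
Hsd3b1, which encodes the 3-beta-hydroxysteroid dehydrogenase of the cortex, had nearly equal shares of 6.87% and 6.97%, from 406 of 5912 and 332 of 4761 reads. The model behind them differed: 406 reads were given to a model of 3 bases, chr3:98852194-98852196, in replicate 1, and 326 to chr3:98851787-98853363, past the gene, in replicate 2. Hsd3b1 has close paralogs, so its reads are uncertain. Scd1, a fatty acid desaturase, had 169 of 1017 reads, or 16.6%, and 261 of 413, or 63.2% (adjusted p = 8.84e-62, Fisher's exact test), all in 1 model of 3029 and 2319 bases at the end of its 3′ untranslated region.

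Apoe, which encodes an apolipoprotein, had the same model in both libraries, chr7:19696267-19696620 on the minus strand, 354 bases between annotated 3′ ends, 238 of them coding and 116 in the 3′ untranslated region. It held 325 of 1252 reads, or 26.0%, and 3411 of 20461, or 16.7%, so the share was lower (Fisher's exact test, adjusted p = 2.13e-13) while the reads were more. Fgg, which encodes the gamma chain of fibrinogen, a plasma protein of the liver, had 0 reads of any class in replicate 1 and 587 of 3826 in replicate 2, in a model with 5 whole introns. Apoe, Rbp4 and Fgg all had more reads in replicate 2, the library with the liver markers. The part of liver RNA in their shares was not tested.
Kcnk3, a potassium channel of the cortex, had 429 of 1744 and 239 of 1015 reads, or 24.6% and 23.5%. Replicate 2 also had 90 ISM single-exon reads, and with both classes together the share was 7.82 points higher there (Fisher's exact test, adjusted p = 0.000480). In each library 233 of them lay at the end of the 3′ untranslated region, from chr5:30623542 and chr5:30623479 to 30625271. In replicate 1 a further 194 lay in chr5:30621367-30623542, which holds an intron and ends where the first begins. Slc25a5, an ADP/ATP carrier of mitochondria, had 234 of 717 reads, or 32.6%, in 1 model in replicate 1. The coordinates of the model run from the annotated start to the annotated end of the gene. This model, chrX:36795651-36798807, held 2 whole introns by the count above, where an annotated transcript of the gene has 4 exons. In replicate 2 a model starting 3 bases later held 189 of 1065, or 17.7%. Near-identical copies of Slc25a5 make its reads uncertain.

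In 39 genes over 50% of the reads lay in the class in both libraries. Of these 34 were protein-coding, as were 5653 of all 5749 tested. In the 39 genes the longest last exon had a median of 3278 bases, against 1617 over all genes tested. Their median depth was 35 and 50 reads, against 57 and 70.
The 12 genes with the highest mean share, among those that reached 50 reads in both, differed in where the reads lay. Tns1 (tensin), Klf9 (a transcription factor), Trp53inp2 (an autophagy protein), Ywhag (a 14-3-3 protein) and Adipor2 (an adiponectin receptor) had most of them in the 3′ untranslated region of the last exon. Tns1 had 76 of 79 and 80 of 123 reads, Klf9 86 of 95 and 46 of 103, and Trp53inp2 47 of 90 and 104 of 108. These 3 differed between libraries (adjusted p = 2.27e-06, 3.46e-10 and 1.21e-11, Fisher's exact test). Ywhag had 48 of 72 and 170 of 286 reads, 66.7% and 59.4%. Adipor2 had 54 of 75 and 72 of 138, 72.0% and 52.2%. Both ended at 1 annotated 3′ end in both libraries.
Abi1 and Gm20388 had most or all of theirs within introns. Abi1, a regulator of actin, had 87 of 117 reads, or 74.4%, and 85 of 101, or 84.2%. Of these 82 in each library lay in an intron model beginning at the same base, chr2:23009814-23014676 in replicate 1 and chr2:23012069-23014676 in replicate 2, with different 3′ ends. Gm20388, a gene model annotated over chr8:119910841-124345722, had 55 of 75 and 110 of 141, or 73.3% and 78.0%.
Gm43126 had all of its 66 and 106 reads in a model that ran past the gene from base 127125784 of chromosome 6 to 127128692 and 127128762. A530020G20Rik had 51 of 64 and 44 of 50 reads, 79.7% and 88.0%, in models with 3 introns and 1 intron. Both genes are noncoding. Gadd45gip1 and Mrpl30 encode mitochondrial ribosomal proteins. Mrpl30 had the same model of 174 bases in both libraries, chr1:37898165-37898338, with 45 of 88 and 106 of 166 reads. Gadd45gip1 had 61 of 92 and 80 of 142 reads, in models of 217 and 1685 bases that ended at the same base, 1158 bases from an annotated 3′ end.

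Of 5749 genes that reached 20 reads in both libraries, the share differed in 405, or 7.04%, at an adjusted p under 0.05. It was higher in replicate 2 in 330 genes, or 5.74%, and lower in 75, or 1.3%. Over all tested genes the median share was 0.0922% and 1.82%, and 1432 had none in either library. ISM single-exon reads were common in the called genes with no Genomic single-exon reads in 1 library. Of the 330 genes that were higher, 152 had 0 Genomic single-exon reads in replicate 1, and 126 of those had ISM single-exon reads there. Of the 75 that were lower, 41 had 0 in replicate 2, and 40 of those had ISM single-exon reads there. Over all tested genes, 856 of the 2872 with 0 in replicate 1 and 930 of the 1993 with 0 in replicate 2 had ISM single-exon reads. With both classes counted together 207 of the 330 and 20 of the 75 were called in the same direction.

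**Figure D5:**
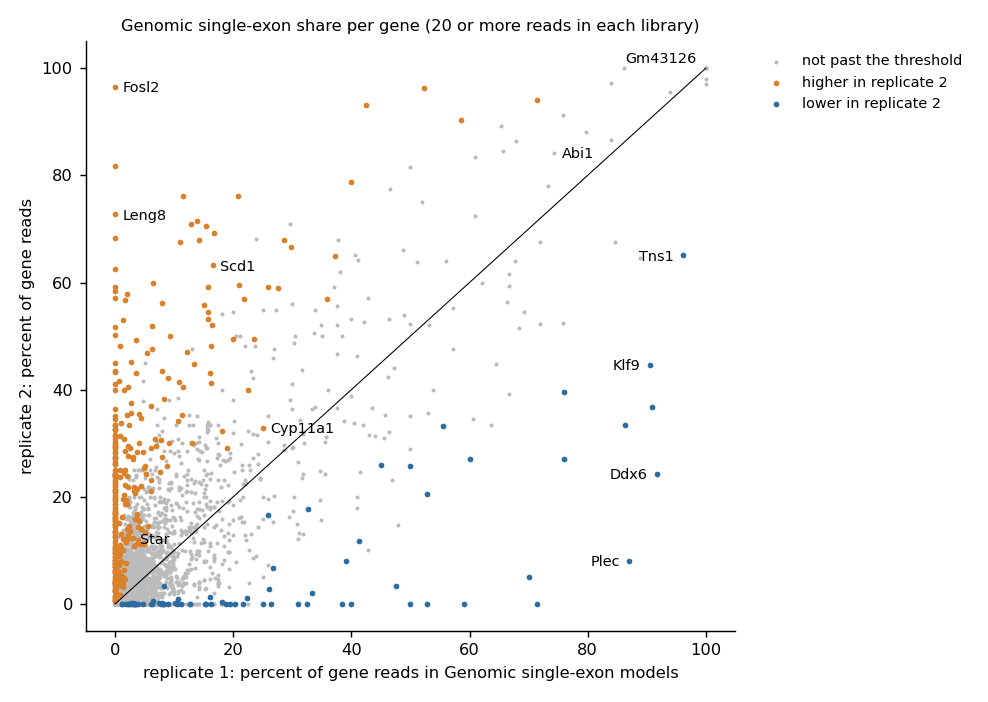
Percent of gene reads in Genomic single-exon models in replicate 1 (x axis) and replicate 2 (y axis) for 5749 genes. Each point is a gene, coloured points passed the threshold (330 higher and 75 lower in replicate 2), and the line marks equal shares. Many coloured points lie on an axis at 0, such as Fosl2 and Leng8.

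Fosl2, which encodes an AP-1 transcription factor, had the largest difference among the genes that were higher. It had 0 of 40 reads in the class in replicate 1, where 31 were ISM single-exon reads, and 83 of 86 in replicate 2, where 0 were (Fisher's exact test, adjusted p = 4.22e-27). The 83 lay in chr5:32153713-32157842, all 3′ untranslated region. Leng8 (0 of 63, then 32 of 44), Rnf44 (0 of 26, then 41 of 60) and C1qtnf6 (0 of 24, then 18 of 22) had 24, 16 and 6 ISM single-exon reads in replicate 1 and 0 in replicate 2. With the classes together Fosl2 was still 19.01 percentage points higher in replicate 2, Leng8 34.6 and C1qtnf6 56.8 (Fisher's exact test, adjusted p = 0.0296, 0.0158 and 0.00424), and Rnf44 was not called (adjusted p = 1 by Fisher's exact test). Abr went from 4 of 35 to 16 of 21 with 0 ISM single-exon reads in either library.
In the other direction Abl1, a tyrosine kinase, had 36 of 61 reads in replicate 1 and 0 of 56 in replicate 2, where 45 were ISM single-exon reads. With the classes together Abl1 was 21.3 percentage points higher in replicate 2, not past the threshold (Fisher's exact test, adjusted p = 0.160). Atp11a had 15 of 21 and 0 of 30, with 20 ISM single-exon reads in replicate 2, and Prdm11 14 of 20 and 1 of 20, with 8. Neither was called with the classes together (Fisher's exact test, adjusted p = 1 and 0.718). Plec, which encodes the cytolinker plectin, had 20 of 23 and 3 of 37, and Ddx6, an RNA helicase of P-bodies, 22 of 24 and 18 of 74, both with 0 ISM single-exon reads in either library. For Star, 488 ISM single-exon reads in replicate 1 and 0 in replicate 2 made the difference 1.71 points with the classes together (Fisher's exact test, adjusted p = 0.0619). The Fisher's exact tests in this paragraph compare reads of 2 libraries.

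The steroidogenesis list, 20 genes of hormone synthesis and cholesterol uptake, had 8.52% and 13.9% of its reads in the class, and 2.26% and 5.68% without Cyp11a1. Its 19 members that reached 20 reads had medians of 1.23% and 4.59%, 8 were higher in replicate 2 and 0 were lower, against 5.74% and 1.3% of all tested genes. With the classes together 5 of those 8 were still called higher. Calls were more frequent in deeper genes, and the list was not matched for depth. Among genes with at least 50 reads, 7 of 16 members were higher, against 8.14% of all tested. Mc2r, the corticotropin receptor, had 0 of 30 and 29 of 67 reads (Fisher's exact test, adjusted p = 9.00e-05), 27 of them in a model of 1 base at an annotated 3′ end. It had 5 ISM single-exon reads in replicate 1 and was not called with the classes together (Fisher's exact test, adjusted p = 0.130). Cyp11b1, which makes corticosterone, had 111 of 8534 and 193 of 4073, and Cyp11b2, which makes aldosterone, had 0 of 466 and 0 of 309. The adipocyte list had 0.899% and 4.08%. In it Adipoq, which encodes adiponectin, had 1 of 129 and 72 of 229 reads (adjusted p = 9.07e-13, Fisher's exact test), 56 of them in a model holding an intron.
The chromaffin list of 22 genes had 1.19% and 1.34%. Of its 14 tested members 2 were higher in replicate 2 and 1 was lower, where 5.74% and 1.3% of all tested genes were. With the classes together 2 were higher and 0 lower. The 5 chromaffin cell markers had 83 of 7082 reads in the class in replicate 1 and 8 of 8613 in replicate 2. By mean share, the highest member of the list that reached 20 reads in both libraries was Cyb561, a cytochrome of secretory granules. Cyb561 had 18 of 419 and 51 of 459 reads (adjusted p = 0.00393, Fisher's exact test). In replicate 1 alone Rab3a of this list had a higher share, with 5 of 50 reads, and it had 0 of 39 in replicate 2. A list of genes known for detained introns, with SR kinases, had 3.36% and 5.25%, and 2 of its 18 tested members were higher and 0 lower, where 330 and 75 of all 5749 tested genes were. In it Ddx17, an RNA helicase, had 24 of 27 and 20 of 31, mostly in its 3′ untranslated region. The SR and hnRNP protein list had 2.91% and 2.83%, with 0 higher and 2 lower of 22, against the same 5.74% and 1.3%, and 1 lower with the classes together. Srsf1, a splicing factor, had 12 of 89 and 22 of 128 reads, all in a model with 2 whole introns.
Ribosomal protein genes had 0.598% and 1.28%, and Rps27a 5 of 95 and 63 of 260 in the same model of 54 bases, with copies elsewhere that make it uncertain. The erythroid list had 0 of 1862 and 0 of 3158 reads, where a count of 0 allows up to 3 reads. The mitochondrially encoded genes and 5 of the 6 detected replication-dependent histones are annotated with a single exon, so their 0 is not a comparison. In the nuclear noncoding list Meg3 had 11 of 50 and 46 of 358, and Malat1 0 of 44 and 0 of 2980. For Malat1, 43 and 2980 of these reads lay in annotated transcripts of a single exon, so its 0 is not a comparison either. The lists of liver secreted proteins (0.344% and 0.877%), skeletal muscle (0.290% and 5.39%), immediate early genes (1.40% and 1.75%) and endothelium and stroma (0.469% and 1.32%) had 1 called gene between them, Tpm1, higher in replicate 2. These lists had 2, 3, 4 and 9 tested members in that order, and 7.04% of all tested genes were called in either direction. Tpm1 was not called with the deeper library thinned or with the classes together (Fisher's exact test, adjusted p = 0.294 and 0.199), and the skeletal muscle share of replicate 2 is 9 of 167 reads.

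At intron loci the noncoding gene Gm15283 had 86.7% and 95.7% of its reads in the locus shown above. The remaining loci of the 8 with the most reads lacked sequence or are not shown. Mfsd4a, a membrane transporter, had 22 of 35 and 49 of 91 reads at its locus. In replicate 1 the model reached into an annotated 3′ untranslated region by 920 bases. Nckap5 had 4 and 54 reads in the same model of 90 bases, chr1:126708474-126708563. D130009I18Rik had all of its 5 and 41 reads in chr14:104715774-104715985 and chr14:104715767-104715986, 212 and 220 bases long.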

How the data were processed

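Long-read RNA sequencing of total RNA from adrenal gland was deposited as 2 libraries of 1 group. The authors deposited, for each library separately, raw read counts per transcript model and an annotation of the models. They used GENCODE M21 on mm10, per the file headers, and attribute names of TALON. For the aligner, tool versions, priming and PCR copies, nothing is stated in the sources used here. Intervals and limits therefore cover counting error only. Model length, exon count and coordinates are the deposited values of another kind used here.

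Depth was 752432 and 1210671 reads in annotated genes, without spike-ins. Each model was set against the exons of all annotated transcripts of its gene: within exons, within an intron, exon and intron, or past the gene. Sequence came from GENCODE M21 transcripts, since no genome was used here. Recurrence took 3′ ends within 50 bases in the same gene and strand. Shares have 95% Clopper-Pearson intervals. Genes that reached 20 reads in both libraries were compared by a two-sided Fisher's exact test (scipy 1.17.1) with Benjamini-Hochberg adjustment at 0.05. It was run on simulated counts that varied by the sampling of reads only. Such counts cannot show how the test fares where libraries differ in how reads are classed. Python 3.11.15, numpy 2.4.6 and pandas 2.3.3 were used.

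Members and lists were chosen with earlier results of these data known. Named genes are the 12 with the highest share (50 reads or more in both), the 10 with the most Genomic single-exon reads, the 5 called genes with the largest difference in each direction, the 3 highest of each list, and the 8 loci with the most reads over all and within introns. Others were chosen after their values were seen: Plcg1, Strbp, Gm44686, Cyp11b1 and Cyp11b2. Not every gene taken by the rule is described. Sequence on chromosome 18 is not shown. Alternatives changed the reads, exons, tolerance, distance, read minimum and depth, and left out each library.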

Additional observations from a re-analysis of the deposited data

Results flagged for a closer look

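Data outside the comparisons above held related models. Multi-exon Genomic models, which the class of single-exon models leaves out, had 663 reads in replicate 1 and 1207 in replicate 2. These are sums over many models, so the 3 reads that a single count of 0 allows are no measure for them. They were 407 models in replicate 1 and 744 in replicate 2 after spike-ins were left out, and 80.8% and 86.3% of them had a single read.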

How the results depend on the processing

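No paired analysis was possible because there is 1 group of libraries. The alternatives that count Genomic and ISM single-exon reads together, or leave out models of 1 to 3 bases, were chosen after seeing the data. The library difference in share kept its direction under every alternative tried, and was 2.34 percentage points with genes weighted equally against 1.21. Counting both single-exon classes raised the mean share to 5.73%, and lowered the genes with a lower share in replicate 2 from 75 to 24, while 338 were higher. Under it Abl1 reversed, at 21.3 points higher, 6 of the other named genes lost their call and 3 gained one, Kcnk3, Gm20388 (24.5 points) and Hba-a1 (3.06 points), all higher. Weighting by reads gave 55.3% within exons, 7.17% within an intron, 6.74% past the gene and a median length of 1798 bases. Models with at least 2 reads gave 59.3%, 8.17%, 6.99% and 1675.5 bases. A tolerance of 10 bases gave 21.7% exon and intron and 20.6% within an intron, and basic transcripts alone 9.31% past the gene. At least 60% A in 20 bases held for 17.4% of exon models ending elsewhere. Recurrence in replicates 1 and 2 was 43.0% and 24.3% at 10 bases, 45.9% and 26.0% at 200 bases, 56.8% and 33.6% by overlap, and 51.4% and 27.6% for models with at least 2 reads. Thinning the deeper library left 235 genes higher and 57 lower. Leaving out each library gave a mean share of 3.72% to 4.93%, 44.5% to 52.5% within exons and medians of 1360.5 to 1605.5 bases. The causes of these changes were not tested. Genes near 20 reads can show only large differences in share.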
